A study of Homo sapiens with 8 samples.

Results

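The genes described here are 10 that build the collagenous extracellular matrix, of 64486 genes annotated on GRCh37. They are the fibrillar collagen chains *COL1A1*, *COL1A2* and *COL3A1*, the type VI collagen chains *COL6A1*, *COL6A2* and *COL6A3*, *COL12A1*, and the glycoproteins *TGFBI*, *FN1* and *SPARC*. The members were chosen by name with peak values of these data already known, among them the promoter peaks by *MYCN* status, so the values by group are a description and were not tested. The data are MBD-seq peak lists of 8 neuroblastoma (NB) cell lines, established cultures of tumor cells. Genomic DNA was sheared, fragments with methylated CpG were captured with the methyl-CpG-binding domain of MBD2, and peaks mark where captured fragments piled up. IMR-32, N206, CHP-902R and LAN-2 (LA-N-2 in its title) are labelled as *MYCN* amplified (MNA), and SJNB-1, CLB-GA, SK-N-AS and SH-SY5Y as *MYCN* single copy. The labels name no drug or other treatment of the cells, no normal tissue or input DNA is among the lists used here, and each line is 1 sample, so the spread within a group is a spread between 4 lines and not between repeats of a line.

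Fibrillar collagens are triple helices that assemble into the load-bearing fibers of connective tissue. FACIT collagens such as type XII sit on the surface of these fibers, and type VI collagen forms beaded filaments between fibers and cells. In NB, matrix genes are known to be active in Schwann cell-like stroma and in mesenchymal-type tumor cells, and less so in adrenergic-type cells. Methylation of a CpG-dense promoter usually goes with a silent gene, whereas methylation inside the body of a gene is common in active and inactive genes alike. MBD-seq reports methylated DNA and holds no expression, so nothing below is a level of mRNA or protein.

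The stretches of DNA that the results turn on are printed first, from the GRCh37 reference and not from the lines, in the direction of transcription. All are in lower case with each CpG in capitals, because CpG is what the capture binds. Transcription start sites (TSS) come from GENCODE release 44 in GRCh37 coordinates, and the canonical TSS is that of the transcript Ensembl marks as canonical. The first 2 stretches are shown because the promoter peaks of *COL12A1* near the start of the gene lie there, upstream at chr6:75917467-75917766 and in intron 2 at chr6:75911751-75912050, both read from the minus strand.
COL12A1 upstream: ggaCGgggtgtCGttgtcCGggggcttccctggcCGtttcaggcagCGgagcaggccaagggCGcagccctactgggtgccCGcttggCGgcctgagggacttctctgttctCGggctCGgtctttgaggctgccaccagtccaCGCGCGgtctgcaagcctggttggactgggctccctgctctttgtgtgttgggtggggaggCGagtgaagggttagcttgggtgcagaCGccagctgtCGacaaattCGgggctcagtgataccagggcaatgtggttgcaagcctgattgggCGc
COL12A1 intron 2: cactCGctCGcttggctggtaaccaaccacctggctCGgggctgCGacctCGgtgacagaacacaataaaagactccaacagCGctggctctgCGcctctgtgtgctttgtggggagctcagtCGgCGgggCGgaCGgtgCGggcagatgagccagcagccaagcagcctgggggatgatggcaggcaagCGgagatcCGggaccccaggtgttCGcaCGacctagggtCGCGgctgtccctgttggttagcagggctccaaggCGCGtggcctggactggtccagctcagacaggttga
The upstream stretch holds 18 CpG and the intronic stretch 20 CpG in 300 bp each.

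The next 4 stretches are shown because they are the places in the type VI genes where peaks of the most lines met, together with the upstream place of *COL6A2* at which peaks were seen in MNA lines. They lie at chr21:47516340-47516639 and chr21:47532002-47532301 in and before *COL6A2*, at chr21:47407107-47407406 in *COL6A1*, all on the plus strand, and at chr2:238296226-238296525 in *COL6A3*, on the minus strand.
COL6A2 upstream: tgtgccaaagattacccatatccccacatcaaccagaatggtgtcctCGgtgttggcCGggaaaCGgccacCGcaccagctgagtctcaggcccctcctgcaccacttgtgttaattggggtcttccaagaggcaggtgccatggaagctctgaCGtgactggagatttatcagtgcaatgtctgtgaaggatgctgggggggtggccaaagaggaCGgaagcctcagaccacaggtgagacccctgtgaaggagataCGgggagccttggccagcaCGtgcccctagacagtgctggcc
COL6A2 exon 3: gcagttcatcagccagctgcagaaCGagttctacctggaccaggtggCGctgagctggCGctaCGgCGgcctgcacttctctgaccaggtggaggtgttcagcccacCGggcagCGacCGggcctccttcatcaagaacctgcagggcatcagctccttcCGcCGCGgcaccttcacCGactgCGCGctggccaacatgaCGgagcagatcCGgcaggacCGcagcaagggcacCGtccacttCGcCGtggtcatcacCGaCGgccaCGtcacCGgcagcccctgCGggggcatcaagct
COL6A1 intron 6: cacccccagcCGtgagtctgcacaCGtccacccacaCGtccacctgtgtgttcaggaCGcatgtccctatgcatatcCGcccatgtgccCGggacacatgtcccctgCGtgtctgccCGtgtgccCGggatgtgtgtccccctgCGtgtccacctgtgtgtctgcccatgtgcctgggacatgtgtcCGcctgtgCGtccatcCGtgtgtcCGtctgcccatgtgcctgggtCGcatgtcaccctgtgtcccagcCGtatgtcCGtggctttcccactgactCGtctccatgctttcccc
COL6A3 exon 4: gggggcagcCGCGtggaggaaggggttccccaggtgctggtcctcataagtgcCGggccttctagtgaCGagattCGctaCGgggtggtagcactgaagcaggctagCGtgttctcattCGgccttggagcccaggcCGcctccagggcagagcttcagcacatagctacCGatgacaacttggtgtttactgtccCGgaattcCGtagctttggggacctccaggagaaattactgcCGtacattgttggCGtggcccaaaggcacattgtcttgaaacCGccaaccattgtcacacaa
The stretch in exon 3 of *COL6A2* is the richest of the 4, with 25 CpG, and that upstream of *COL6A2* the poorest, with 8 CpG. The stretches in exon 3 of *COL6A2* and exon 4 of *COL6A3* are exonic over all 300 bp.

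The last 2 stretches are the bases upstream of the TSS that the peaks of several lines share, at chr7:94024064-94024126 for *COL1A2* and chr5:135364502-135364676 for *TGFBI*, both on the plus strand. They are shown because they differ widely in CpG: *COL1A2* has 3 CpG in 63 bp and *TGFBI* has 19 in 175 bp.
COL1A2 promoter: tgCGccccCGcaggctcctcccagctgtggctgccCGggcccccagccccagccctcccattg
TGFBI promoter: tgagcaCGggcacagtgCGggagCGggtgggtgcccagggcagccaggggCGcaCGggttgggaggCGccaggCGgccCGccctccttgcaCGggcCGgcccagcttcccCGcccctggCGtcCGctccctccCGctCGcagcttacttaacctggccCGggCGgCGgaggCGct

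The lists held 70816 (SJNB-1) to 112412 (LAN-2) peaks, and the 4 longest lists were those of the MNA lines. The depth behind a list is unknown, so the absence of a peak shows only that none was called, and no interval can be given for presence. The score of a peak, which rises as its p-value falls, was ranked only within a list. The alternative that drops peaks scoring under 100 used the same cut for all lists, whatever their depth. Peaks covered 8.68% to 19.8% of the sequence within 1 Mb of *MYCN* in MNA lines, against 1.87% to 4.76% in single copy lines, so each line was on the side of its label. A promoter peak below is a peak that shares at least 1 bp with a window around any annotated TSS of the gene, reaching 1500 bp upstream and 1000 bp downstream. The share of a gene covered by peaks, the covered share, is in percent of its annotated length.

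Over the 10 genes 209 peaks were found, between 19 (SJNB-1) and 37 (LAN-2) per line. Promoter peaks were present in 6 to 9 of the 10 genes in each line, with a mean of 7.50 ± 1.29 (SD, n = 4) in both *MYCN* groups. On average 75.0% of the genes had a promoter peak, beside 36.9% of the 20176 protein-coding genes. Of 92 other collagen and matrix genes listed further below, 47.4% had one. The members were chosen with promoter peaks known, so nothing is read from the contrast. With the canonical TSS alone, a choice made after the data were seen, the mean was 4.50 ± 1.91 genes for MNA and 3.50 ± 0.577 for single copy lines, 40% of the members over all lines beside 16.2% of protein-coding genes. These genes have many annotated starts, 4 in *COL3A1* and up to 19 in *COL6A3* and *FN1*, beside a median of 5 over protein-coding genes. Of the 209 peaks 37 lay in the window of the canonical TSS, 80 in that of another TSS and 92 in the gene body only. In *COL1A1* the windows of its 13 TSS join into 1 stretch of 17011 bp, about as long as the gene, so that almost any peak in *COL1A1* counts as a promoter peak.

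**Figure D1:**
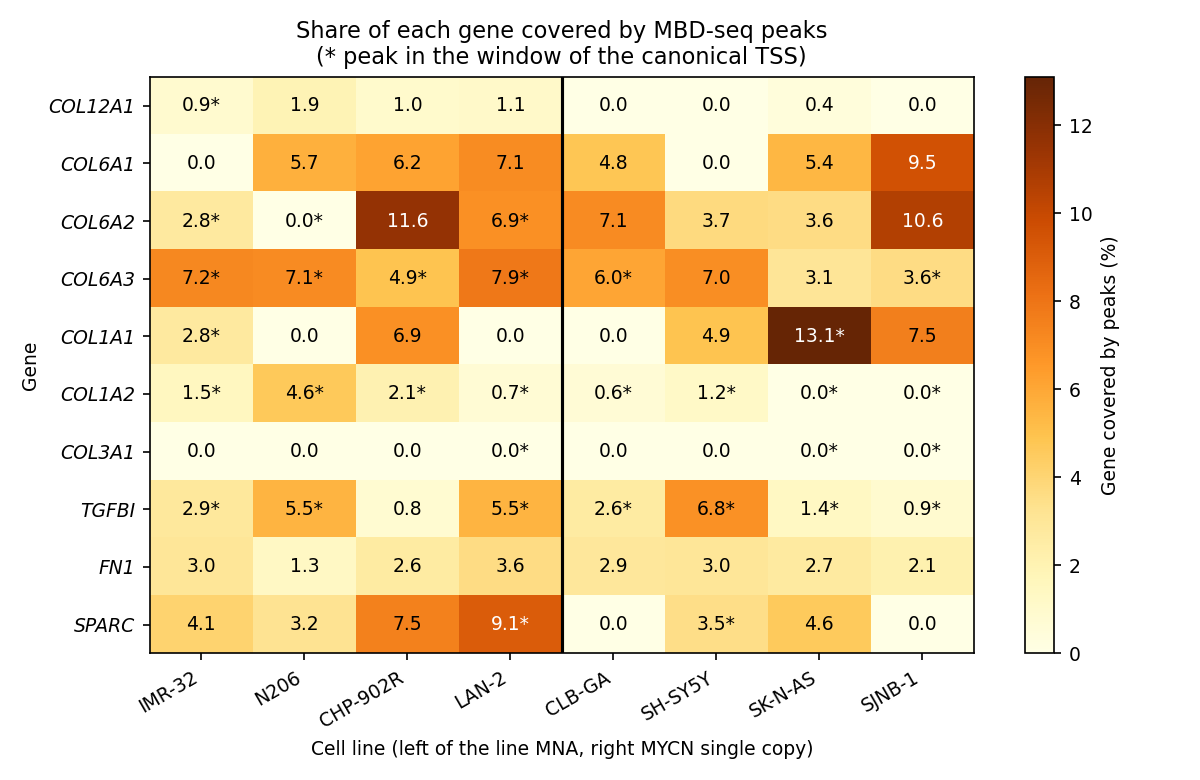
Share of each gene covered by MBD-seq peaks (color and printed value, %) in 4 MNA lines (left of the black line) and 4 *MYCN* single copy lines (right), with an asterisk where a peak overlaps the window of the canonical TSS. *COL12A1* is the only gene whose MNA lines, at 0.89% to 1.93%, all lie above the single copy lines, at 0% to 0.399%, and *COL3A1* is at 0% in all 8 lines.

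*COL12A1*, the FACIT chain, was the 1 member of the 10 with a promoter peak in all 4 MNA lines and in 0 of 4 single copy lines. Over all annotated genes 94 of 64486, or 0.146%, had this pattern, and 33, or 0.0512%, had the opposite pattern, which 0 of the 10 members showed. The pattern of *COL12A1* was among the values known when the members were chosen, so nothing is read from its rarity. The gene spans chr6:75794042-75915983 on the minus strand, 121942 bp with 13 annotated TSS.

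The 4 lines did not have their peaks in the same place. In IMR-32 a peak of 1274 bp lay upstream, at -2211 to -938 bp from the canonical TSS, which outscored 95.3% of the peaks in its list, and a second lay 3655 to 4201 bp downstream in intron 2. In N206 there was no peak upstream, and the peaks in windows lay 3540 to 4083 bp downstream, overlapping that of IMR-32, and near internal TSS, from 86732 and from 117001 bp downstream. In CHP-902R a peak of 515 bp lay at -2104 to -1590 bp and outscored 13.7% of its list. It overlapped the window of the outermost TSS but not that of the canonical one. A further CHP-902R peak in a window, 116990 to 117405 bp downstream, overlapped a peak of N206 and outscored 82.4% of its list. LAN-2 had no peak near the start, and its promoter peak lay at an internal TSS, 59958 to 60388 bp downstream.

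No base of *COL12A1* or its windows was under peaks of more than 2 of the 4 lines. In the window of the canonical TSS, a peak was present in IMR-32 and in no other line, and within 250 bp of that TSS none of the 8 lines had one, although this sequence holds 9.78 CpG per 100 bp. Among the 94 genes with the same pattern, the 4 MNA peaks shared a base in 45, and in 19 genes, *COL12A1* among them, at most 2 lines shared one. The 40 protein-coding genes among the 94 had a median of 7 annotated TSS, beside 5 over all protein-coding genes.

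**Figure D2:**
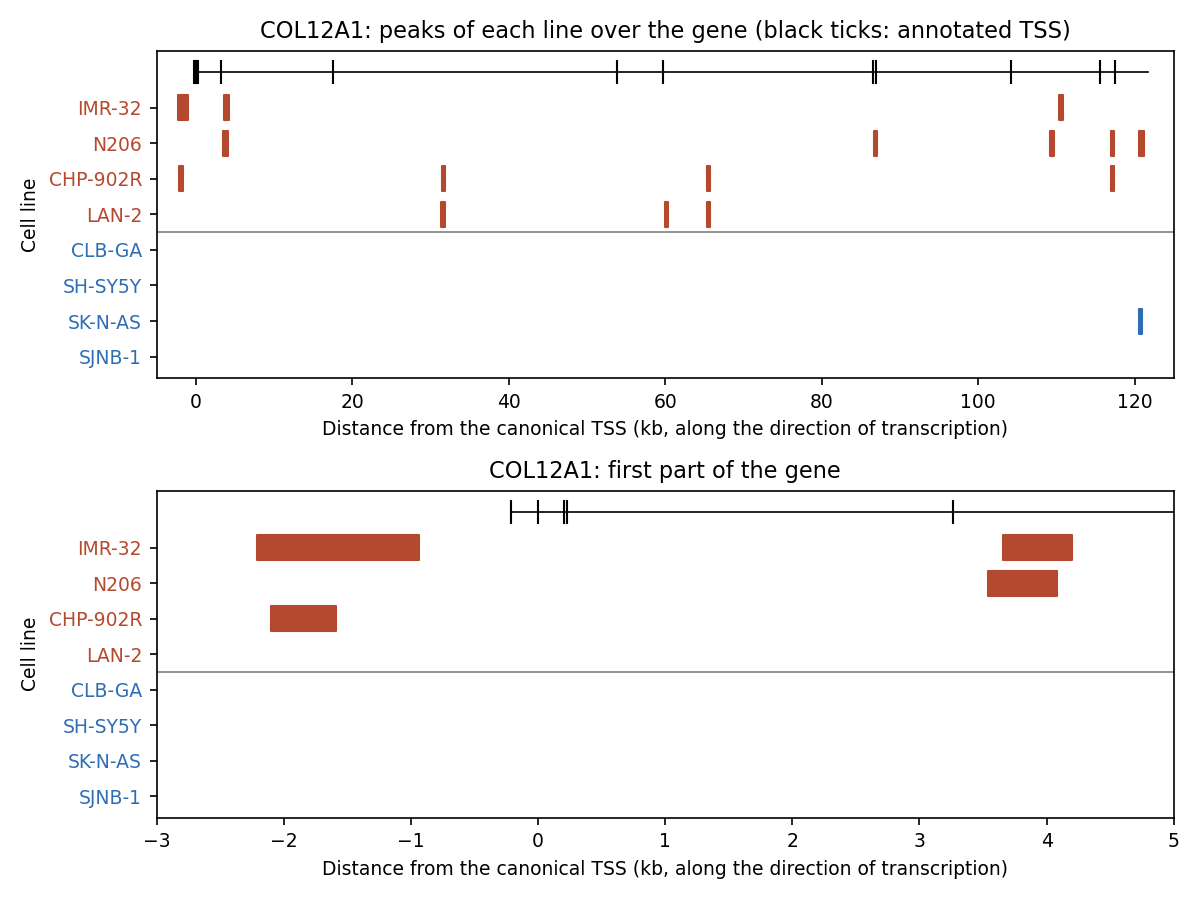
Peaks (bars, drawn to scale) of the 4 MNA lines (red) and the 4 single copy lines (blue) over *COL12A1*, with distance from the canonical TSS in kb on the horizontal axis, the whole gene above and its first part below. Black ticks mark annotated TSS. The MNA lines have peaks at several places, none under more than 2 lines, and among the single copy lines SK-N-AS has 1 peak, at the far end.

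The covered share of *COL12A1* was 0.89% in IMR-32, 1.93% in N206, 1.00% in CHP-902R and 1.12% in LAN-2. It was 0.399% in SK-N-AS and 0% in CLB-GA, SH-SY5Y and SJNB-1. All 4 MNA lines were thus above all 4 single copy lines, with group means of 1.24% ± 0.475 and 0.0996% ± 0.199 (SD, n = 4 each). The SK-N-AS peak lay in the untranslated part of the last exon, exon 66, where N206 had a peak as well. Of the 37205 genes with a peak in any line, 634, or 1.70%, had every MNA line above every single copy line, and 126, or 0.339%, had the reverse. When each list was cut to its top 70816 peaks, the length of the shortest, these numbers were 305 and 287, and the groups stayed apart for *COL12A1*. When peaks scoring under 100 were dropped, its groups overlapped, and the difference was 0.0884 percentage points.

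Part of the *COL12A1* sequence under peaks is not unique in the genome. Both stretches near the start, the upstream and the intron 2 stretch, consist of 45 bp windows, the length of a read, that occur once in GRCh37. In the stretch that peaks of CHP-902R and LAN-2 share from 65376 bp downstream of the TSS 47.5% of the windows occur once, and in the stretch they share from 31503 bp downstream 66.0% do. In the stretch from 117001 bp downstream, which N206 and CHP-902R share, 54.3% do, and in the promoter peak of LAN-2 93.0% do. In a peak of IMR-32 from 110313 bp downstream 42.7% do, and in a peak of N206 from 109201 bp downstream 57.7% do. That IMR-32 peak is 538 of the 1085 bp of the gene covered in IMR-32, the lowest MNA line in covered share. In the stretches from 86732 and from 120588 bp downstream all windows occur once. The part of repeats in the calls was not tested.

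In two-sided Fisher's exact tests of promoter peaks over all genes, the smallest p that 4 lines against 4 allow is 0.0286, and 127 genes reached an unadjusted p under 0.05. After Benjamini-Hochberg adjustment over all 64486 genes, 0 passed. For the covered share, the exact permutation test gave 760 genes of 37205 with an unadjusted p under 0.05 and 0 after adjustment. This design therefore calls no single gene, whatever its pattern.

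The type VI chains, which assemble as heterotrimers, carried peaks in more lines. *COL6A1* and *COL6A2* lie close together on chromosome 21. In *COL6A1* the 7 peaks formed 1 merged region, 3691 to 6045 bp downstream of its TSS over exons 4 to 8. It was present in N206, CHP-902R and LAN-2 of the MNA group and in CLB-GA, SK-N-AS and SJNB-1 of the single copy group, and the window of the canonical TSS was without a peak in every line. All 6 lines shared 464 bp, of which the printed intron 6 sequence is the middle. The covered share was 0% in IMR-32, 5.67% in N206, 6.16% in CHP-902R, 7.06% in LAN-2, 4.80% in CLB-GA, 0% in SH-SY5Y, 5.42% in SK-N-AS and 9.54% in SJNB-1. One line of each group was thus without cover, and the groups overlapped over nearly their whole range. A base shared by at least 6 lines was found in 25.7% of protein-coding genes.

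Each of the 8 lines had a promoter peak in *COL6A2*, a pattern found in 6.11% of protein-coding genes, yet at different places. Upstream, at -2012 to -464 bp from the TSS, peaks were found in IMR-32, N206 and LAN-2, and in no other line. Within the lists, the peak of IMR-32 there ranked above 1.67% of peaks and that of N206 above 59.6%. Those of LAN-2 ranked above 4.38% and 45.6%, so part of these calls were near the lowest score of their list. Of protein-coding genes, 0.823% had a canonical window peak in at least 3 MNA lines and 0 single copy lines, and this place was noticed after the values were seen. The merged region of these upstream peaks overlaps the annotated gene *COL6A2-DT*, a divergent transcript. The sequence within 250 bp of the TSS, with 12.2 CpG per 100 bp, held no peak in any line. In exon 3, by contrast, CHP-902R, LAN-2 and all 4 single copy lines shared 545 bp at an internal TSS, and IMR-32 and N206 had no peak there. Another place, in the last exon, exon 28, was shared by IMR-32, LAN-2, CLB-GA and SJNB-1.

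The covered share of *COL6A2* was 2.75% in IMR-32, 0% in N206, 11.6% in CHP-902R and 6.90% in LAN-2. The single copy lines had 7.10% in CLB-GA, 3.69% in SH-SY5Y, 3.60% in SK-N-AS and 10.6% in SJNB-1. The groups overlapped, and the 3 lines with the upstream peak included the 2 with the lowest covered share.

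*COL6A3*, the longest of the type VI chains with 44 exons, had 70 of the 209 peaks, in 29 places. A place in exon 4, which codes for one of the repeated domains of the chain, was under peaks in 7 lines, all but SK-N-AS. Within the lists, the peaks there ranked above 67.4% (SJNB-1) to 96.2% (SH-SY5Y) of peaks. A base shared by at least 7 lines was found in 14.3% of protein-coding genes. Just inside the gene, 181 to 1485 bp downstream of the TSS in the first exon and intron 1, all 4 MNA lines and CLB-GA and SJNB-1 had peaks, and the lines SH-SY5Y and SK-N-AS had none in this place. Exons took up 45.3% of the bases under the *COL6A3* peaks and 11.7% of the bases of the gene. These shares were not computed over all genes, so nothing is read from the contrast. The covered share was 7.18% in IMR-32, 7.09% in N206, 4.91% in CHP-902R and 7.88% in LAN-2, and 6.05% in CLB-GA, 6.97% in SH-SY5Y, 3.06% in SK-N-AS and 3.62% in SJNB-1. CHP-902R lay below CLB-GA and SH-SY5Y, so the groups overlapped. Without CHP-902R they did not, and the difference rose from 1.84 to 2.46 percentage points. Without SK-N-AS, the lowest line, it fell to 1.22 and the groups overlapped. Over all genes, 1502 had every MNA line above every single copy line without CHP-902R, beside 634 with all 8 lines.

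**Figure D3:**
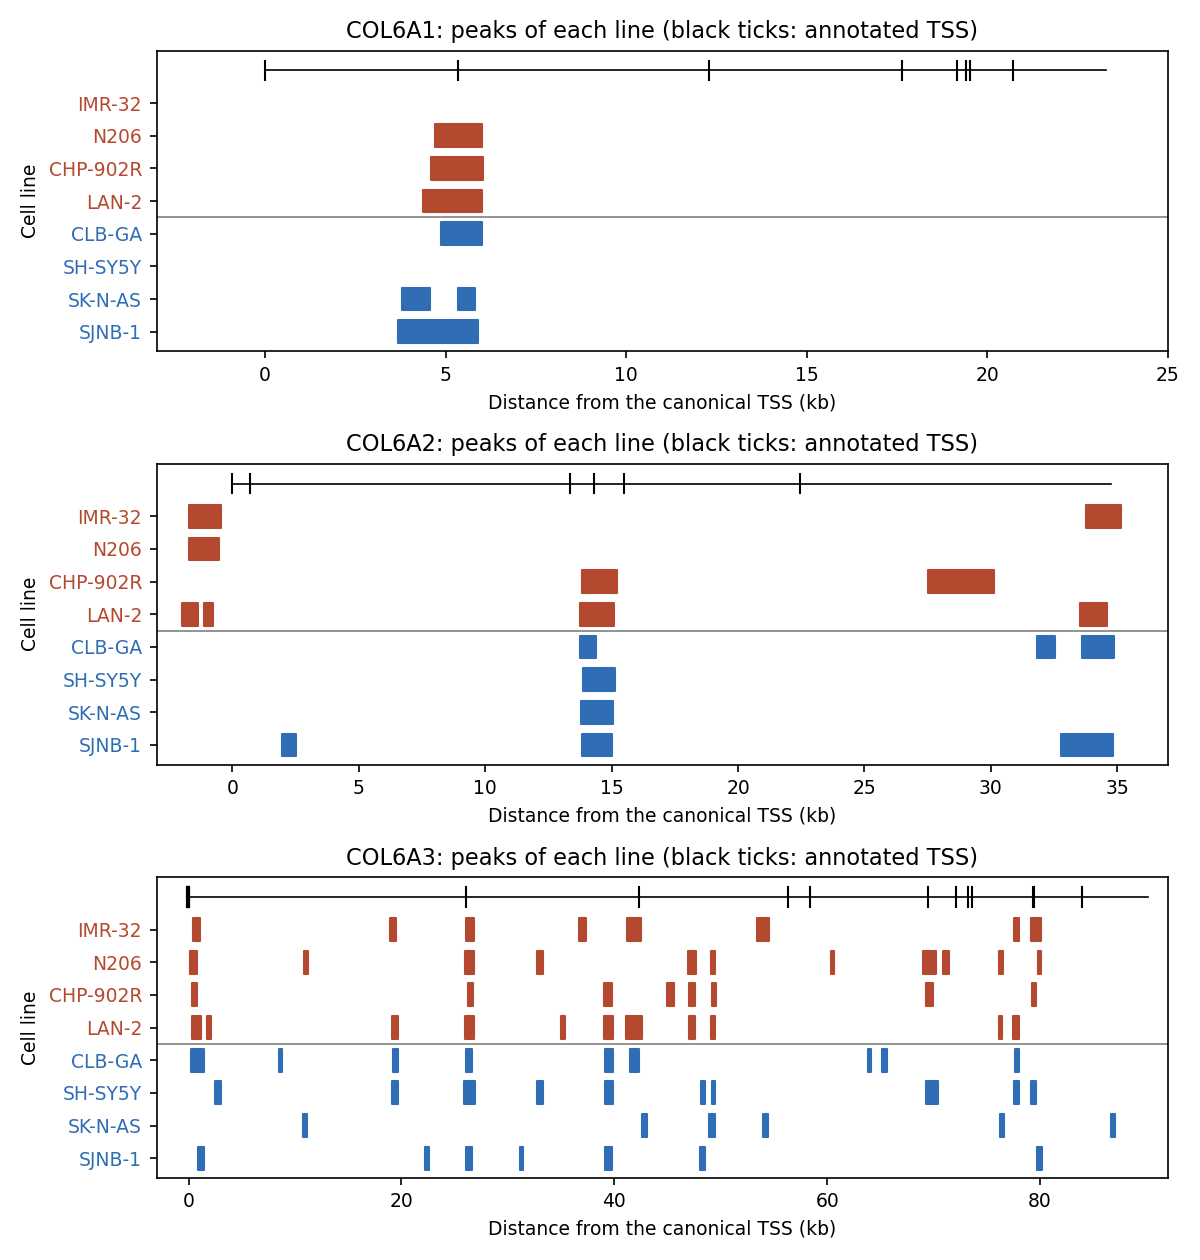
Peaks (bars, to scale) of the 4 MNA lines (red) and 4 single copy lines (blue) in *COL6A1*, *COL6A2* and *COL6A3*, with distance from the canonical TSS in kb on the horizontal axes and annotated TSS as black ticks. Peaks of 6 lines meet in *COL6A1* and in exon 3 of *COL6A2*, those of 7 lines in exon 4 of *COL6A3*, and peaks upstream of *COL6A2* are in 3 MNA lines.

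Among the fibrillar chains, the pair that forms type I collagen differed at the start. *COL1A2*, the alpha 2 chain, had a peak in the window of its canonical TSS in all 8 lines. IMR-32, N206, CHP-902R, LAN-2, CLB-GA and SH-SY5Y shared the 63 bp printed above, at -143 to -81 bp from the TSS. SK-N-AS and SJNB-1 had peaks only farther upstream, ending at -558 and -566 bp, and none within 250 bp. Of the peaks over the shared 63 bp, that of N206 ranked above 99.2% of its list and that of CLB-GA above 13.8% of its own. A peak within 250 bp of the canonical TSS in at least 6 lines, as in *COL1A2*, was found in 1.67% of protein-coding genes. Part of the sequence under these peaks also belongs to an annotated gene without a symbol, and the lists cannot assign a peak to either.

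The covered share of *COL1A2* was 1.48% in IMR-32, 4.64% in N206, 2.09% in CHP-902R, 0.696% in LAN-2, 0.63% in CLB-GA, 1.20% in SH-SY5Y, and 0% in SK-N-AS and SJNB-1. N206 was the highest and LAN-2 lay below SH-SY5Y, so the groups overlapped. They did not overlap without LAN-2, with a difference of 2.28 percentage points in place of 1.77, or without SH-SY5Y, at 2.02. Without N206, the highest line, the difference fell to 0.965 and the groups overlapped.

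*COL1A1*, the alpha 1 chain, had a peak over its TSS in IMR-32 and SK-N-AS alone. The peak of IMR-32, at -199 to 482 bp from the TSS, ranked above 96.4% of its list, and that of SK-N-AS above 5.70% of its own. The other peaks lay inside the gene in CHP-902R, SJNB-1, SK-N-AS and SH-SY5Y, and farther upstream in SK-N-AS. N206, LAN-2 and CLB-GA had no peak in the gene or its windows. The merged region over the TSS and the SK-N-AS peak farther upstream also overlap an annotated gene without a symbol. The covered share ran from 0% to 6.88% with a median of 1.38% for MNA and from 0% to 13.1% with a median of 6.23% for single copy lines, the highest being SK-N-AS. The groups overlapped, and the difference of -3.99 percentage points turned to 0.69 when peaks scoring under 100 were dropped. It was -1.74 without SK-N-AS and -6.12 without CLB-GA.

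*COL3A1*, the chain of type III collagen, had no peak inside the gene in any line. Its 3 peaks, in LAN-2, SK-N-AS and SJNB-1, were at 1 place upstream of the TSS. Around the TSS *COL3A1* has 0.798 CpG per 100 bp, the lowest of the 10 genes.

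**Figure D4:**
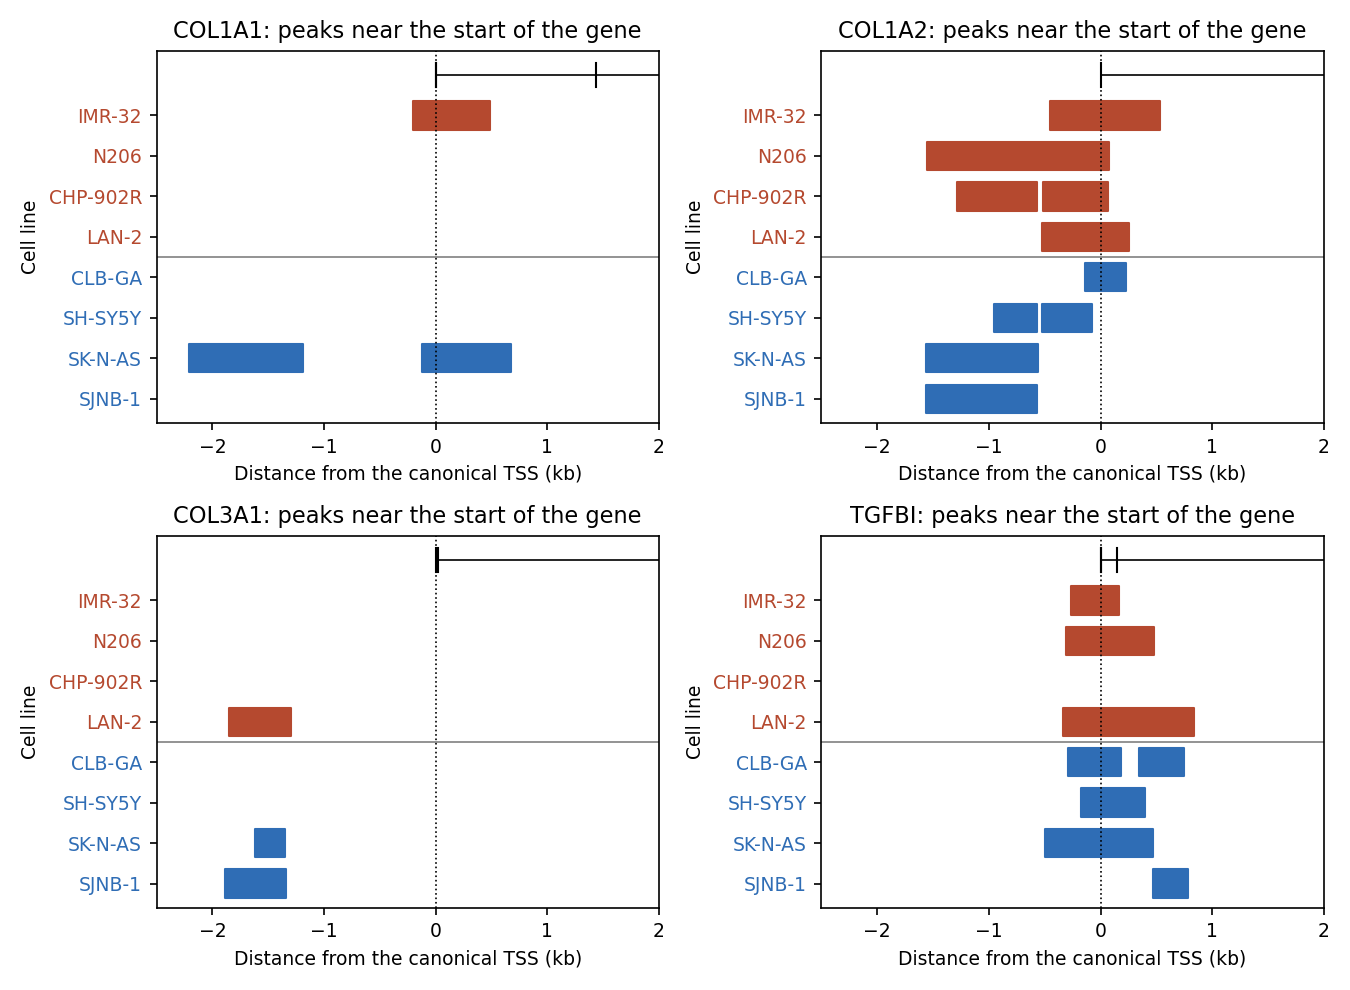
Peaks (bars, to scale) near the start of *COL1A1*, *COL1A2*, *COL3A1* and *TGFBI* in the 4 MNA lines (red) and 4 single copy lines (blue), with distance from the canonical TSS (dotted line) in kb on the horizontal axes. *COL1A2* has peaks in all 8 lines, 6 of them within 250 bp of the TSS, *TGFBI* in 7 lines, *COL1A1* over the TSS in 2, and *COL3A1* only upstream in 3.

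*TGFBI*, a secreted glycoprotein induced by TGF-beta that binds collagens and integrins, had a peak in the window of the canonical TSS in every line but CHP-902R. IMR-32, N206, LAN-2, CLB-GA, SH-SY5Y and SK-N-AS shared 341 bp over the TSS, with 11.7 CpG per 100 bp, and the peak of SJNB-1 lay 467 to 786 bp downstream. Within the lists, the peak of LAN-2 there ranked above 98.8% of peaks and that of N206 above 10.3%.

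Among protein-coding genes with at least 5 CpG per 100 bp within 250 bp of the TSS, 84.9% had no peak there in any line. Of the 5 members in that class, *COL12A1*, *COL6A1*, *COL6A2* and *FN1* were like this majority, and *TGFBI* was not, with peaks in 6 lines. Of the 5 members with fewer CpG, *COL1A2* had such peaks in 6 lines, *COL1A1* and *COL6A3* in 2, and *COL3A1* and *SPARC* in 0. Over all protein-coding genes with fewer CpG, 76.7% had no such peak in any line.

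The covered share of *TGFBI* was 2.85% in IMR-32, 5.48% in N206, 0.81% in CHP-902R, 5.51% in LAN-2, 2.63% in CLB-GA, 6.84% in SH-SY5Y, 1.36% in SK-N-AS and 0.919% in SJNB-1. The highest and the lowest line were in different groups, and the groups overlapped. Apart from the start, peaks of IMR-32, N206 and SH-SY5Y met over exon 8.

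**Figure D5:**
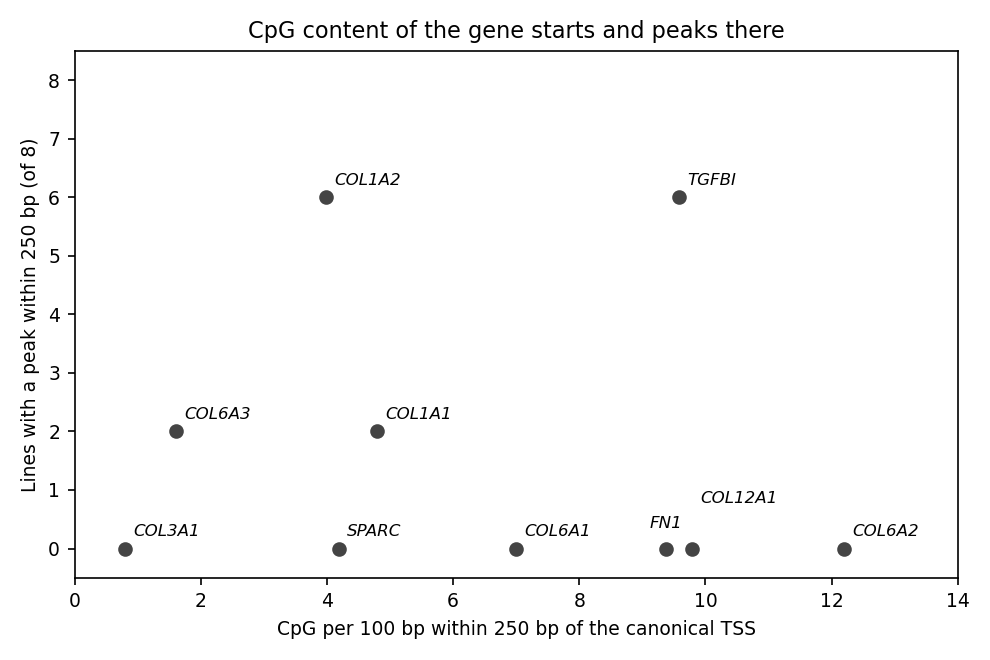
Number of the 8 lines with a peak within 250 bp of the canonical TSS (vertical axis) against the CpG content of the same 500 bp (horizontal axis, CpG per 100 bp) for each of the 10 genes. *TGFBI*, at 9.58 CpG per 100 bp, has peaks in 6 lines, and *FN1*, *COL12A1* and *COL6A2*, at 9.38 or more, have peaks in 0.

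*FN1* encodes fibronectin, which links collagen to integrins on cells. It had no peak in the window of the canonical TSS in any line, which held for 51.5% of protein-coding genes, and its 33 peaks lay from 1149 bp into the gene onward. Peaks in the windows of internal TSS were present in every line but N206. The covered share was 3.01% in IMR-32, 1.33% in N206, 2.63% in CHP-902R and 3.59% in LAN-2, and 2.89% in CLB-GA, 2.97% in SH-SY5Y, 2.69% in SK-N-AS and 2.10% in SJNB-1. The group means were 2.64% ± 0.958 and 2.66% ± 0.391 (SD, n = 4 each). The places differed between lines, and the 33 peaks formed 18 places, none in more than 3 lines. IMR-32, CHP-902R and LAN-2 met over exons 14 and 15, and CLB-GA and SK-N-AS met with LAN-2 over exon 25 and with IMR-32 over exon 28.

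*SPARC*, also called osteonectin, a collagen-binding protein that takes part in matrix assembly, had peaks upstream of the TSS in LAN-2 and SH-SY5Y, starting at -1455 and -1488 bp, and none within 250 bp. The merged region of the upstream peaks overlaps another annotated gene, as do a LAN-2 peak and an N206 peak inside *SPARC*. The covered share was 4.12% in IMR-32, 3.24% in N206, 7.49% in CHP-902R and 9.07% in LAN-2. It was 3.53% in SH-SY5Y, 4.58% in SK-N-AS and 0% in CLB-GA and SJNB-1. CHP-902R and LAN-2 were the highest, but N206 lay below SH-SY5Y and SK-N-AS, so the groups overlapped. The difference of 3.95 percentage points turned to -0.289 without peaks scoring under 100. Of the places in 4 lines, that over exon 9 had both groups at 2 lines, and that between exons 3 and 4 had N206, CHP-902R, LAN-2 and SK-N-AS. In the latter 51.0% of windows of read length are unique.

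Across the 10 genes the 209 peaks merged into 95 places, of which 45 were in 1 line, 36 in 2 or 3 and 14 in at least 4. Of the 14, *COL6A3* had 7, *COL6A2* and *SPARC* 2 each, and *COL6A1*, *COL1A2* and *TGFBI* 1 each. *COL12A1* had none, although it had peaks in 5 lines. The peaks held a median of 2.92 CpG per 100 bp, within the medians of 2.41 to 3.14 over all peaks of the single lines. In all 10 genes the median peak had more CpG than the gene as a whole, from 3.09 against 2.65 per 100 bp in *COL1A1* to 4.08 against 0.563 in *COL3A1*. The capture binds methylated CpG, and the share of all genes like this was not computed, so nothing is read from it. Exons took up 31.3% of the bases under the 209 peaks.

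Other collagens and matrix genes, without the members unless said otherwise, were read in the same way. Of 44 collagen genes, members included, 16 (CLB-GA) to 27 (IMR-32) had a promoter peak, 47.2% on average, and 41.9% of the 37 collagen genes that are not members, beside 36.9% of protein-coding genes. None of these 37 had the pattern of *COL12A1* at the promoter or its opposite, which 0.146% and 0.0512% of all annotated genes had. The 9 other FACIT collagens had promoter peaks in 5.50 ± 1.73 genes for MNA and 3.75 ± 0.957 for single copy lines (SD, n = 4 each), and the groups overlapped, with 4 genes in N206 and 5 in SH-SY5Y. The 8 other fibrillar collagens were at 3.75 ± 1.26 and 4.25 ± 1.5, and the 14 other network, filament and anchoring collagens at 3.25 ± 0.5 and 3.25 ± 0.957.

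Promoter peaks were present in 57.5% of 15 collagen processing enzymes, 58.2% of 23 other matrix glycoproteins, 37.5% of 7 proteoglycans and 35.0% of 10 collagen and fibronectin receptors, as means over the lines. Of the 92 listed genes that are not members, 0 separated the groups at the promoter, and 1, *COL11A1*, did so by covered share. By covered share, 1.70% of genes with a peak in any line had every MNA line above, and 0.339% the reverse. *COL11A1*, a minor fibrillar collagen named after its values were seen, had 1.10% to 2.30% for MNA and 0.182% to 1.04% for single copy lines. Its highest single copy line, SJNB-1, was just below its lowest MNA line, CHP-902R.

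Over all protein-coding genes 6.11% had promoter peaks in every line. Besides *COL1A2*, *COL6A2* and *COL6A3*, 7 of the 92 listed genes that are not members had them, near that share. They are *PCOLCE*, which enhances the trimming of procollagen, *LOXL3*, a lysyl oxidase that cross-links collagen, the glycoproteins *THBS2*, *EMILIN1*, *LAMB1* and *NID2*, and *VCAN*, a large proteoglycan. In *PCOLCE*, *LOXL3* and *EMILIN1* all 8 lines shared a base. The share of all genes like this was not computed, and for at least 7 lines it was 14.3% of protein-coding genes. For *EMILIN1* the covered share was 18.0% to 25.8% over the 8 lines, above every value of the 10 members. In *COL6A3* 7 lines shared a base and in *COL1A2* and *COL6A2* 6 did. The same count of 8 lines thus stood for a base shared by all lines in some genes and not in others.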

How the data were processed

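The 8 NB cell lines gave 1 MBD-seq sample each. Per the methods of the study, the authors mapped paired-end reads of 45 bp on GRCh37 with Bowtie 0.12.7 and called peaks with MACS 1.4beta in each line. The deposited lists give a position and a MACS score per peak. The score is on a log10 scale of the p-value and rises as the p falls, its lowest value of 50.0 being a p of 1e-05. It depends on depth, which is unknown per list.

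Peaks were set against GENCODE release 44 in GRCh37 coordinates (220854 distinct TSS) in Python 3.11.15 (numpy 2.4.6; tests in scipy 1.17.1), and repeats of 45 bp windows were counted with numba 0.67.0. Over all genes, promoter peaks were compared with two-sided Fisher's exact tests and covered shares with exact permutation tests, adjusted after Benjamini-Hochberg. The members and lists were chosen with earlier results of these data known. Named genes are the 10 members and, of 102 listed genes, those that separate the groups at the promoter or have a promoter peak in all 8 lines. *COL11A1*, outside this rule, was named after its values were seen. Alternatives were scores of at least 100, equal list lengths, peak midpoints, other TSS and windows, and each line left out. The canonical TSS and the shared base were added after seeing the data, as was the count of repeated windows. Tag counts of the authors were not used here. The sequence of 1 place is not reported here.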

Additional observations from a re-analysis of the deposited data

Results flagged for a closer look

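In the covered share of *COL12A1*, SK-N-AS stood apart from the other single copy lines, at 0.399% against 0% in CLB-GA, SH-SY5Y and SJNB-1. Its gap to the nearest other line, divided by the range of the group, was 1.00, above Dixon's critical value for 4 samples. With the other 3 lines at 0 this ratio is 1.00 whatever the value of the fourth, so it is a description and no test. It rests on 1 peak with a score of 55.24 in the last exon. Of 26 groups of values examined 1 stood out in this way. The usual chance rate of about 1 in 20 does not apply to values tied at 0.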

How the results depend on the processing

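Dropping peaks that scored under 100 lowered the mean number of members with a promoter peak per line from 7.50 to 2.75 and that of collagen genes from 20.8 to 5.38. It lowered the genes separating at the promoter from 94 to 22 (MNA) and from 33 to 5 (single copy), and those separating by covered share from 634 to 182 and from 126 to 36. With equal list lengths these were 48, 64, 305 and 287. With the outermost TSS the members and collagens were 4 and 8.62. With the canonical TSS, added after seeing the data, they were 4 and 9.12, and 52 and 16 genes separated. When the 4 lines had to share a base, also added later, 45 and 12 did.

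Leaving out each line in turn gave 7.29 to 7.71 members and 19.9 to 21.4 collagens. Separating genes numbered 145 to 246 (MNA) and 64 to 101 (single copy) at the promoter, and 917 to 1502 and 241 to 367 by covered share; with fewer lines the pattern is easier to meet. *COL12A1* kept its separation at the promoter and by covered share (0.904 to 1.25 percentage points) with each line left out. A separation over all 8 lines always holds with a line left out, so this was certain in advance and is no test. At the promoter the share of MNA lines exceeded that of single copy lines by 50.0 percentage points with scores of at least 100 or the outermost TSS, and by 25 with the canonical TSS. The differences of *COL6A1*, *COL6A2* and *FN1* changed sign when single lines were left out, and that of *TGFBI* ran from 0.0524 to 2.03. Other causes were not tested. No paired analysis was possible because the lines of the 2 groups share no culture, donor or batch in the labels and their numbers only name them.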
